A study of Mus musculus with 15 samples.

Results

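A group of 10 secreted or membrane-bound signals that microglia make or receive were followed in the hippocampus of aged Tg2576 and wild-type (WT) mice. They were listed by symbol: the inflammatory cytokines Il1b, Il1a and Tnf, the chemokines Ccl3 and Ccl4, the neuronal chemokine Cx3cl1, the growth factors Csf1 and Il34, and the regulatory cytokines Tgfb1 and Il33. All 10 symbols were found among the 55401 genes counted in each library. There were 15 libraries in 4 groups: 4 of WT mice on vehicle, 4 of WT mice on docosahexaenoic acid (DHA), 4 of Tg2576 mice on vehicle and 3 of Tg2576 mice on DHA. Each library is called a mouse here, but neither the labels nor the methods say that each came from a separate animal, so the p-values measure the spread between libraries. The mice were females aged 18 to 20 months, and the WT mice were littermates without the transgene. DHA at 450 mg/kg in sesame oil, or sesame oil alone, was given by daily gavage for 5 weeks. The Tg2576 groups carry the label "Tg2576 +/+" and the WT groups "Tg2576 -/-". The transgene is human APP with the Swedish familial mutation, driven by the prion promoter, so its product is overexpressed from a promoter that is not its own.

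Microglia, the resident macrophages of the brain, depend on signals through the receptor CSF1R, whose ligands are CSF1 and IL-34. In the adult forebrain IL-34 comes mainly from neurons. CX3CL1 (fractalkine) is a neuronal membrane protein that is read by the microglial receptor CX3CR1, and TGF-β1 maintains the homeostatic state of microglia. IL-1β, IL-1α, TNF, CCL3 and CCL4 are made largely by activated microglia and macrophages, and microglia around amyloid plaques are known for Ccl3 and Ccl4 expression. IL-33 is a nuclear alarmin of astrocytes and oligodendrocytes that acts on microglia through its receptor, encoded by Il1rl1.

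Promoter sequences of 3 genes are shown because these genes gave the differences between genotypes described below: Il1b and Ccl3 were higher, and Cx3cl1 lower, in Tg2576 mice. Each run is the 100 bases before the RefSeq start site (build GRCm38.p6), read 5′ to 3′ along the gene's strand. Capitals mark TATAAA or GAGGAA, the latter a core of sites for the myeloid factor PU.1, on either strand. Il1b lies on the minus strand at chr2:129371140-129371239, Ccl3 on the minus strand at chr11:83649379-83649478 and Cx3cl1 on the plus strand at chr8:94772080-94772179. The Cx3cl1 gene as counted in the files begins upstream of that start site, at 94772009, so the run shown for it lies within the counted gene.
Il1b: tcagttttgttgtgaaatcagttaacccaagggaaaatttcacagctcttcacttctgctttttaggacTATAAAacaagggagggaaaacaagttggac
Ccl3: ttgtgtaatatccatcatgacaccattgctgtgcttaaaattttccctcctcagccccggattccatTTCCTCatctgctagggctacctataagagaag
Cx3cl1: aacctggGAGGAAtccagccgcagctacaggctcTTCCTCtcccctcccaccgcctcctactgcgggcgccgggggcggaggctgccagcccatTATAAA
TATAAA begins 31 bases before the start in Il1b and 6 bases before it in Cx3cl1. Promoters were matched for 8 of the 10 genes; Il34 and Ccl4 had no entry in the table used. Within 250 bases upstream, TATAAA on either strand was present in Il1b, Il1a, Tnf, Cx3cl1 and Il33, against 12.4% of 32851 promoters. GAGGAA was present in Il1a, Tnf, Cx3cl1 and Ccl3, against 23.3% of promoters. TGANTCA, the AP-1 consensus, was found in Il1a (6.75% of promoters), and the kappaB consensus in Tgfb1 and Csf1 (7.25% of promoters). These matches describe the letters in the window and are not evidence of binding.

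The libraries held 17372864 to 46596489 counted reads (median 25645977). App, counted without separating the mouse gene from the transgene, was 1572.05 to 1787.41 CPM (counts scaled to library size) in WT mice and 2076.47 to 2787.13 CPM in Tg2576 mice, so every library matched its genotype label. One library stood apart: the first Tg2576 vehicle mouse had the lowest homeostatic microglia markers (summed 169 CPM against 190 to 312 CPM in the other 14 mice). Without it the genes that differed between genotypes under vehicle rose from 604 to 965. This library was also the shallowest, at 17372864 counted reads. Hippocampal neuron markers such as Prox1 (71.6 CPM) and Wfs1 (184 CPM) were abundant. Choroid plexus and ependyma markers, led by Ttr, ran from 51.4 to 5758 summed CPM between mice and were at 3020 CPM or more in the 3 Tg2576 DHA mice; their part in the results below was not tested. Small counts were mostly even: 78.4% to 82.4% of the counts from 1 to 10 in each mouse were even numbers, against 52.1% to 55.9% of the counts over 100. The counting command sets no option for read pairs or strand. A sequenced fragment may therefore enter as 2 reads, and the read numbers given here may overstate the independent evidence.

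The 10 genes spanned a wide range of abundance, compared here as CPM per kilobase of exon. Cx3cl1 was the most abundant at 162 ± 17.7 (SD over 15 mice), higher than 99.1% of the genes tested. Il34 followed at 23.0 ± 2.76, Il33 at 17.1 ± 3.48, Csf1 at 7.56 ± 0.851 and Tgfb1 at 1.49 ± 0.372 CPM per kb. Ccl3 was at 1.36 ± 0.928, Ccl4 at 0.880 ± 0.662, Il1a at 0.271 ± 0.151, Il1b at 0.211 ± 0.114 and Tnf at 0.0928 ± 0.0827 CPM per kb. From Cx3cl1 down to Tgfb1 each gene was above the next one in 15 of 15 mice, and Ccl4 was above Il1a in 15 of 15. Tgfb1 and Ccl3 were not separated (Tgfb1 higher in 9 of 15 mice), nor were Il1a and Il1b (Il1a higher in 9 of 15); Ccl3 was above Ccl4 in 12 mice and Il1b above Tnf in 13.

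**Figure D1:**
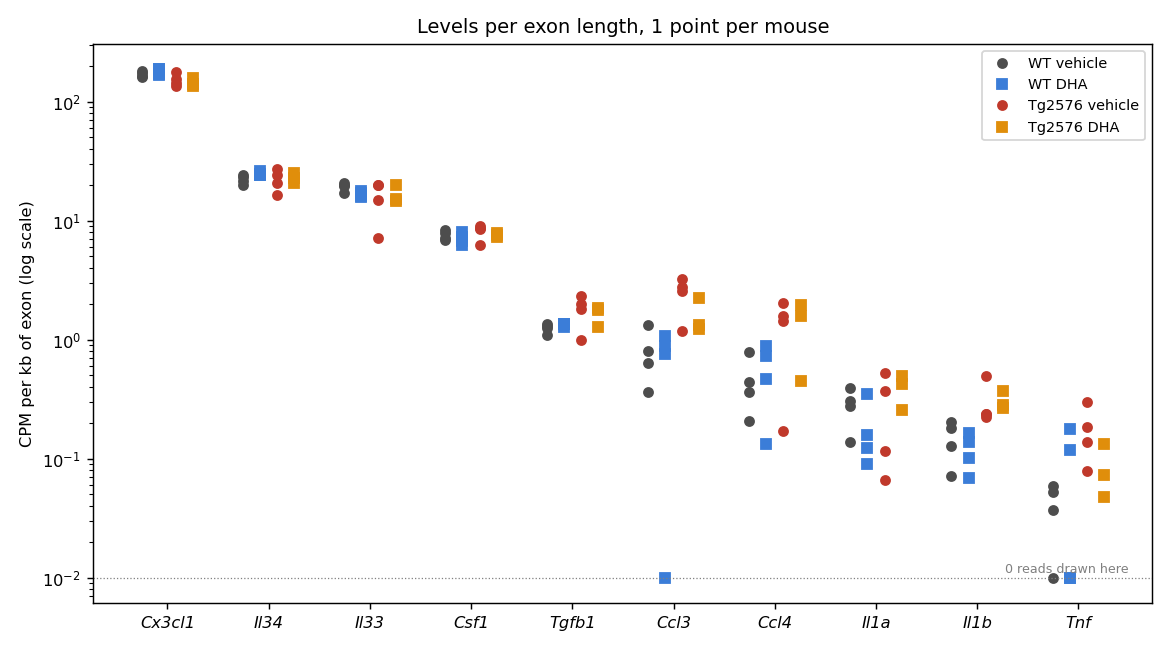
CPM per kilobase of exon on a log axis for each gene, 1 point per mouse, coloured by group. Cx3cl1 lies at 162 CPM per kb on average and Tnf at 0.0928; mice with 0 reads (1 for Ccl3 and 3 for Tnf) are drawn on the dotted line.

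The lowest genes rested on few reads in all 15 mice together: 420 for Ccl3, 240 for Ccl4, 221 for Il1a, 163 for Il1b and 59 for Tnf. Of the 10 genes, 9 passed the filter on low counts, which asks for about 0.390 CPM in at least 3 mice. Tnf did not pass. Il1b passed through the Tg2576 mice alone, with 7 of 7 at or above that level and 0 of 8 WT mice, so its presence among the tested genes already depended on its difference between genotypes. Ccl4 reached the level in 3 WT and 5 Tg2576 mice and Ccl3 in 6 and 7. Counts over the 9 genes are therefore given as a description.

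The first question was which of these signals differ between Tg2576 and WT mice. Averaged over both treatments, Ccl3, Ccl4 and Il1b were higher and Cx3cl1 was lower in Tg2576 mice at the unadjusted p under 0.01 that the study used. These were 4 of the 9 genes, where 3.85% of the 19536 genes tested passed the same threshold. After adjustment over all genes tested, none of the 9 was under 0.05 in edgeR's quasi-likelihood test. The smallest adjusted p was 0.154, and 5 of 9 had an unadjusted p under 0.05. The median log2 fold change of the 9 was 0.41, beside 0.00 (-0.0043) for all genes. Because hippocampal tissue was measured in bulk, more cells of a type and more RNA per cell cannot be told apart in any of these differences.

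Il1b encodes IL-1β, the secreted inflammatory cytokine that caspase-1 activates. Its counts were 16, 8, 4 and 8 reads in the WT vehicle mice and 6, 4, 6 and 4 reads in the WT DHA mice. They were 8, 14, 10 and 23 reads in the Tg2576 vehicle mice and 14, 24 and 14 reads in the Tg2576 DHA mice. Scaled to depth, the WT mice lay between 0.130 and 0.387 CPM and the Tg2576 mice between 0.430 and 0.935 CPM, so every Tg2576 mouse was above every WT mouse. The share of tested genes with this pattern was 0.189%, from which nothing is read here, since Il1b was itself tested only for its level in Tg2576 mice. Il1b was 2.33-fold higher in Tg2576 mice averaged over treatments (log2 fold change 1.22 ± 0.33, standard error; edgeR p = 0.00192, adjusted p = 0.154; exact permutation within treatments, two-sided, p = 0.000408, the smallest it can give). Under vehicle the fold was 2.05 (edgeR p = 0.0333, exact permutation p = 0.0286) and under DHA 2.64 (edgeR p = 0.0113, exact permutation p = 0.0286), and neither edgeR value passed the threshold of 0.01. The averaged difference passed that threshold in the 22 of 22 alternatives that tested Il1b, among them the fit with no filter on low counts (log2 1.21). The filter asking for 10 counts in every mouse left Il1b out. Most alternatives kept the main filter and all reuse these mice, so they are not independent support. Under vehicle it rested partly on the fourth Tg2576 mouse, without which the log2 fold change was 0.70.

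Il1a encodes IL-1α, the alarmin that shares its receptor with IL-1β. Its counts were 28, 16, 8 and 18 reads in WT vehicle, 4, 21, 6 and 5 in WT DHA, 4, 4, 24 and 18 in Tg2576 vehicle, and 23, 17 and 25 in Tg2576 DHA mice. High and low mice occurred in every group except the last, and the groups overlapped in each comparison. The averaged log2 fold change was 0.51 ± 0.42 (edgeR p = 0.242, exact permutation p = 0.372). Its 95% confidence interval ran from -0.38 to 1.40 and so includes a 2-fold rise. Il1a shares 222 exonic bases with Gm14023 on the other strand, and reads there cannot be assigned to either gene; Il1b shares 25 bases with Il1bos.

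Tnf encodes tumour necrosis factor, a cytokine of activated microglia and macrophages. It had 4, 2, 0 and 2 reads in WT vehicle mice and 4, 4, 7 and 12 reads in Tg2576 vehicle mice. After scaling to depth the 2 vehicle groups did not overlap (0 to 0.0967 against 0.129 to 0.488 CPM; exact permutation test, two-sided, p = 0.0286, the smallest possible for 4 against 4). Without overlap, Tg2576 higher, were 2.18% of the genes tested under vehicle, a set that passed the filter on low counts and so leaves out Tnf. Under DHA the counts were 0, 6, 0 and 6 in WT and 6, 4 and 2 in Tg2576 mice, and the groups overlapped. With all genes kept, edgeR fitted a log2 difference of 2.14 ± 0.98 for the vehicle groups (adjusted p = 0.655) and of 0.15 ± 1.04 for the DHA groups. At 12 reads or fewer per mouse, a difference of this gene could not be resolved further.

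Ccl3 and Ccl4 encode the macrophage inflammatory proteins MIP-1α and MIP-1β, neighbouring paralogs on chromosome 11 that attract leukocytes. Ccl3 (minus strand, 83647844 to 83649355) had 13, 10, 18 and 34 reads in WT vehicle and 0, 21, 16 and 12 reads in WT DHA mice. It had 16, 76, 46 and 52 reads in Tg2576 vehicle and 48, 32 and 26 reads in Tg2576 DHA mice. The WT vehicle mice averaged 0.599 ± 0.314 CPM (SD, n = 4) and the Tg2576 vehicle mice 1.86 ± 0.668 CPM (SD, n = 4). Of the 4 Tg2576 vehicle mice, 3 were above every WT vehicle mouse, and the first one, at 0.908 CPM, was not.

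The averaged fold for Ccl3 was 2.71 (log2 1.44 ± 0.42, p = 0.00312, adjusted p = 0.176; exact permutation within treatments, two-sided, p = 0.00367). Under vehicle Ccl3 was 3.14-fold higher (log2 1.65 ± 0.56, p = 0.00946, adjusted p = 0.318), the 1 of 9 genes called in that comparison, where 3.09% of all genes were called; the exact permutation test gave p = 0.0571. That call held in 12 of 23 alternatives and was lost when any of 10 single mice was left out, with a log2 fold change of 1.39 without the first WT vehicle mouse. Under DHA the 3 Tg2576 mice (0.946 to 1.73 CPM) were above the 4 WT mice (0 to 0.828 CPM), as in 3.91% of genes tested, but the fold of 2.34 did not pass (edgeR p = 0.0641, exact permutation p = 0.0857). The averaged call held in 21 of 22 alternatives; it was lost without the first Tg2576 DHA mouse (log2 1.28).

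Ccl4 (plus strand, 83662584 to 83664683) had 24, 6, 4 and 8 reads in WT vehicle and 2, 18, 6 and 10 reads in WT DHA mice. It had 2, 32, 22 and 33 reads in Tg2576 vehicle and 36, 10 and 27 reads in Tg2576 DHA mice. The first Tg2576 vehicle mouse (0.114 CPM) and the second Tg2576 DHA mouse (0.296 CPM) lay within the WT range of 0.0880 to 0.584 CPM, and the other 5 Tg2576 mice lay above it. The averaged fold was 2.58 (log2 1.36 ± 0.47, edgeR p = 0.00916, adjusted p = 0.254; exact permutation, two-sided, p = 0.0514). The call held in 8 of 22 alternatives. Without the first Tg2576 vehicle mouse the log2 fold change was 1.53, which passed, and without the first Tg2576 DHA mouse 1.17, which did not. Within treatments neither fold was called, at 2.85 with vehicle (adjusted p = 0.399) and 2.33 with DHA (adjusted p = 0.780).

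**Figure D2:**
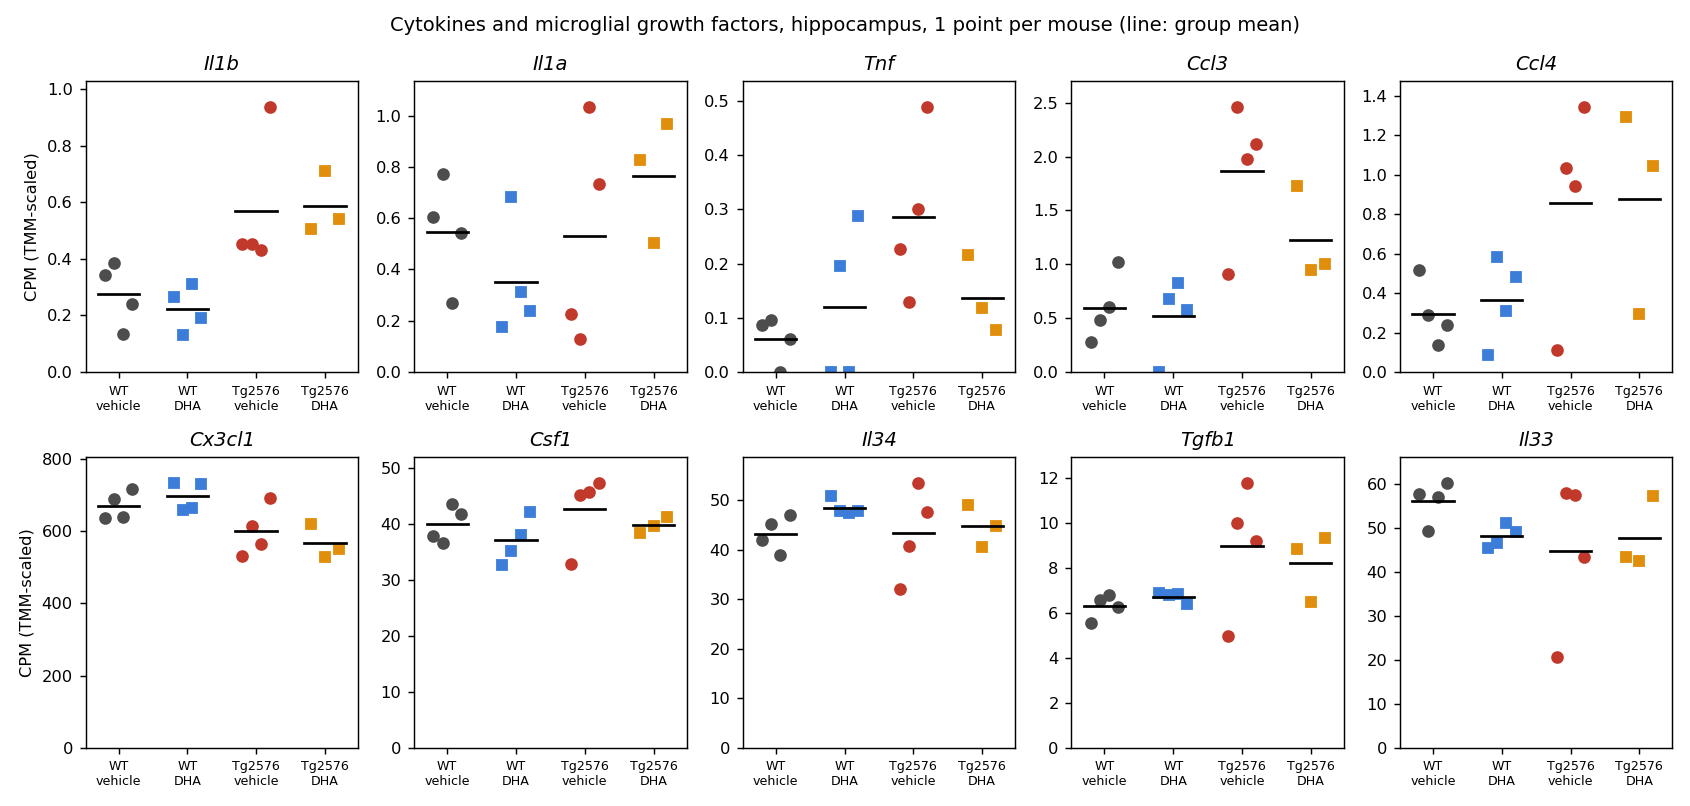
CPM of each gene in every mouse, with the group mean as a line; each axis starts at 0 and has its own range. The 7 Tg2576 mice lie above the 8 WT mice for Il1b, and the first Tg2576 vehicle mouse is the lowest of its group for Ccl3, Ccl4, Csf1, Il34, Tgfb1, Il33 and Cx3cl1.

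Cx3cl1 was counted at 9366 reads or more in each mouse, so counting error was small. It was at 638, 689, 639 and 717 CPM in WT vehicle mice and at 733, 658, 665 and 731 CPM in WT DHA mice. It was at 532, 613, 565 and 692 CPM in Tg2576 vehicle mice and at 621, 529 and 549 CPM in Tg2576 DHA mice. The vehicle groups overlapped through the fourth Tg2576 mouse, whereas all 3 Tg2576 DHA mice were below all 4 WT DHA mice, as in 4.66% of genes tested. Averaged over treatments Cx3cl1 fell to 0.853-fold in Tg2576 mice (log2 -0.23 ± 0.07, p = 0.00275, adjusted p = 0.172; exact permutation, two-sided, p = 0.00531). Under DHA the fold was 0.813 (log2 -0.30 ± 0.10, edgeR p = 0.00661, adjusted p = 0.560; exact permutation p = 0.0286), the 1 of 9 genes called there, against 1.75% of all genes. Under vehicle it was 0.895 (log2 -0.16 ± 0.09, edgeR p = 0.0900, exact permutation p = 0.143).

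The difference of Cx3cl1 between genotypes was not shown to differ between treatments (interaction log2 -0.14 ± 0.13, adjusted p = 0.854). Its averaged call held in 22 of 23 alternatives, the exception being the fit without the second Tg2576 DHA mouse (log2 -0.20). The call under DHA held in 17 of 24. Among the 7 that lost it were the fit with counts scaled by library size alone (log2 -0.26) and those in which 1 of 5 mice was left out, 2 of them WT DHA, 2 Tg2576 DHA and 1 WT vehicle. Of the neuron markers, 6 of 7 were lower in Tg2576 mice averaged over treatments, with Camk2a and Rbfox3 called. Of the hippocampal neuron markers, 8 of 8 were lower, with Prox1, Dsp, Wfs1 and Cpne4 called. The share of all genes called averaged was 3.85%. The summed hippocampal neuron markers were 660 to 896 CPM in WT and 598 to 752 CPM in Tg2576 mice. The summed neuron markers were 8254 to 9655 CPM in WT and 7369 to 8777 CPM in Tg2576 mice. Under DHA, where Cx3cl1 was called, the neuron markers had a median log2 fold change of -0.02 with 0 of 7 called. The hippocampal neuron markers were at -0.15 with 1 of 8 called, beside 1.75% of all genes. Under vehicle, where Cx3cl1 was not called, the medians were -0.12 with 2 of 7 and -0.13 with 2 of 8 called, beside 3.09%. Their part in the lower Cx3cl1 was not tested.

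Csf1 and Il34, the ligands of CSF1R, gave no call in any genotype comparison. Csf1 was at 36.6 to 43.6 CPM in WT vehicle, 32.8 to 42.2 in WT DHA, 32.9 to 47.3 in Tg2576 vehicle and 38.5 to 41.3 in Tg2576 DHA mice. The first Tg2576 vehicle mouse (32.9 CPM) stood below the other 3 (45.2 to 47.3 CPM). The averaged log2 fold change of Csf1 was 0.10 ± 0.08 (95% confidence interval -0.07 to 0.27, adjusted p = 0.699), and 0.15 without that mouse. Il34 was at 38.8 to 46.9 CPM in WT vehicle, 47.4 to 50.8 in WT DHA, 32.0 to 53.4 in Tg2576 vehicle and 40.6 to 49.0 in Tg2576 DHA mice. Its averaged log2 fold change was -0.05 ± 0.09 (interval -0.24 to 0.14, adjusted p = 0.891). For both genes these intervals leave out a change of 1 on the log2 scale. Il34 shares 22 and 75 exonic bases with Gm15894 and Gm15895 on the other strand.

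Tgfb1, the cytokine that holds microglia in their homeostatic state, was at 5.53, 6.58, 6.79 and 6.26 CPM in WT vehicle and at 6.87, 6.79, 6.83 and 6.38 CPM in WT DHA mice. It was at 4.995, 10.02, 11.8 and 9.19 CPM in Tg2576 vehicle and at 8.85, 6.47 and 9.33 CPM in Tg2576 DHA mice. Of the 4 Tg2576 vehicle mice, 3 were above all WT mice, and the first was below all of them. Averaged over treatments Tgfb1 was 1.32-fold higher (log2 0.41 ± 0.15, edgeR p = 0.0132, adjusted p = 0.287; exact permutation, two-sided, p = 0.0310), which did not pass 0.01. Within treatments the fold was 1.44 with vehicle (adjusted p = 0.365) and 1.22 with DHA (adjusted p = 0.840). The call varied with the mice and the settings used. Without the first Tg2576 vehicle mouse the averaged log2 fold change was 0.50 and under vehicle 0.72, and both passed the threshold. The averaged difference also passed by DESeq2, with library sizes alone, with no filter and without the second Tg2576 DHA mouse.

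Il33 was at 57.7, 49.2, 56.9 and 60.1 CPM in WT vehicle and at 45.5, 46.6, 51.2 and 49.1 CPM in WT DHA mice. It was at 20.7, 57.9, 57.4 and 43.3 CPM in Tg2576 vehicle and at 43.4, 42.4 and 57.3 CPM in Tg2576 DHA mice. The first Tg2576 vehicle mouse was again the lowest, and the Tg2576 groups spread more widely than the WT groups. The averaged log2 fold change was -0.16 ± 0.16 (interval -0.51 to 0.18, adjusted p = 0.777), and -0.05 without that mouse.

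**Figure D3:**
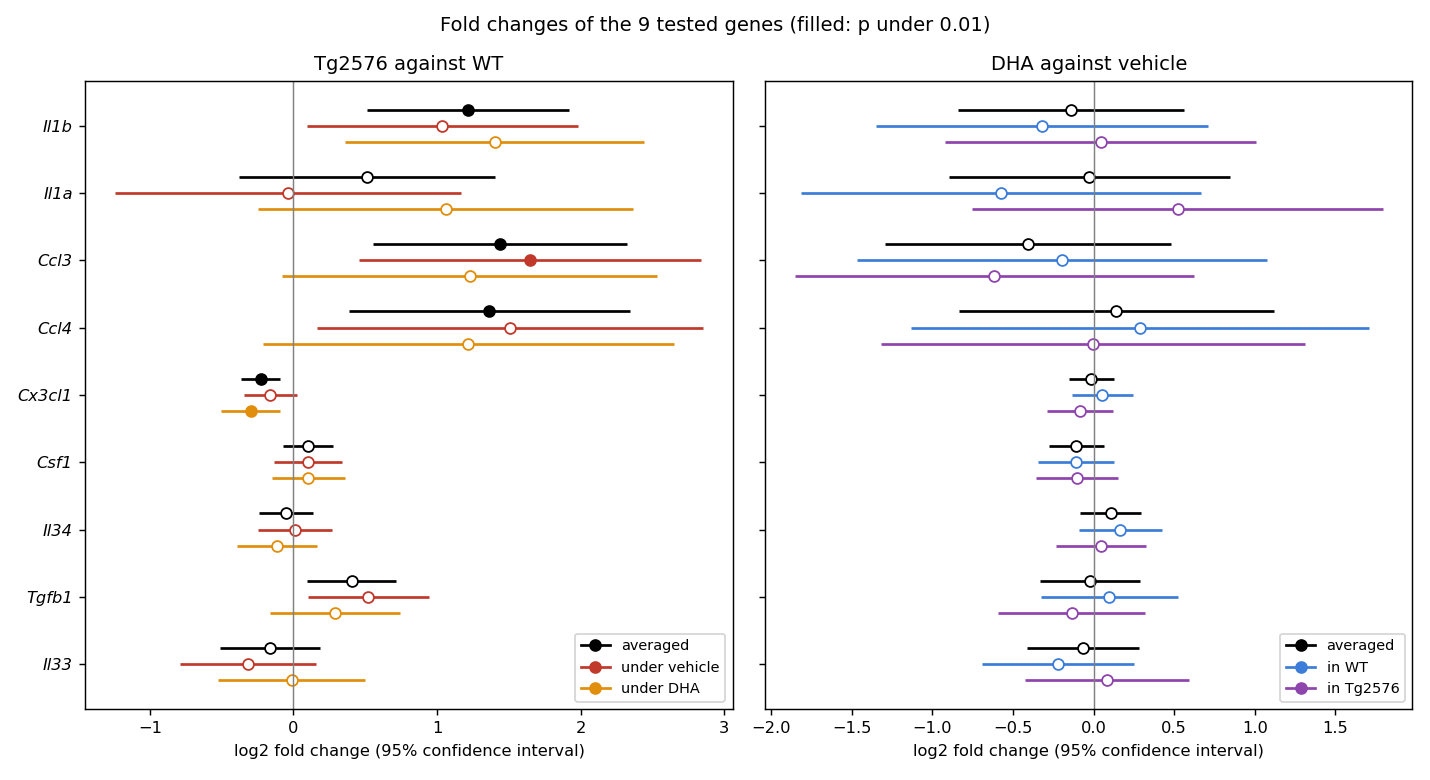
Log2 fold changes with 95% confidence intervals for the 9 tested genes, Tg2576 against WT on the left and DHA against vehicle on the right; filled points had p under 0.01. Il1b, Ccl3 and Ccl4 lie to the right and Cx3cl1 to the left of 0 in the averaged genotype comparison, and no point is filled on the DHA side.

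Most markers of microglia were higher in Tg2576 mice, as Il1b, Ccl3 and Ccl4 were. Of 10 plaque-associated microglia markers, 9 were higher in Tg2576 mice averaged over treatments and 7 were called, beside 3.85% of all genes tested. The 7 were Cst7, Itgax, Clec7a, Trem2, Tyrobp, Cd68 and Ctsd. Cst7, an inhibitor of cathepsins, was higher by 3.21 on the log2 scale (adjusted p = 0.00457), and Cd68, a lysosomal protein of phagocytes, by 0.99 (adjusted p = 0.00884). The most abundant of the list were Ctsd, Lpl and Axl, and Lpl and Axl were not called. The summed list was at 356 to 445 CPM in WT and 367 to 661 CPM in Tg2576 mice, of which the lowest was the first Tg2576 vehicle mouse. Of 10 homeostatic microglia markers, 10 were higher, and Gpr34 was among the 2 called (summed 190 to 233 CPM in WT, 169 to 312 in Tg2576 mice); Selplg and Tmem119 were among the 3 most abundant.

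Markers of other immune cells were sparse. The 6 border macrophage markers summed to 2.97 to 5.22 CPM in WT and 3.25 to 11.3 CPM in Tg2576 mice; 6 of 6 were higher and 0 were called, with Cd163, Mrc1 and Cbr2 the most abundant. The 8 blood leukocyte markers summed to 0.608 to 3.54 CPM in WT and 2.49 to 7.24 CPM in Tg2576 mice. The neutrophil gene Ly6g had at most 2 reads, Retnlg 8 and the T cell gene Cd3e 12 reads in any mouse. Of that list 5 were tested and 5 of 5 were higher averaged over treatments (median log2 fold change 1.14), with S100a8 and Ly6c2 called. Genes this sparse can pass the filter on low counts mainly through the Tg2576 mice. The 5 of 5 and the median are therefore given only as a description. The part of these cells in the differences of Il1b, Ccl3 and Ccl4 was not tested. Among astrocyte markers Gfap, the intermediate filament of reactive astrocytes, was 1.01 higher on the log2 scale in Tg2576 mice, and the other 6 (most abundant Slc1a2 and Aldoc) were not called. Of the remaining lists, 7 of 7 oligodendrocyte and 4 of 4 oligodendrocyte precursor markers were lower and 6 of 6 leptomeningeal fibroblast markers higher, with 0 called. Slco1a4 was called higher among 6 endothelial markers and Prkcd lower among 8 markers of neocortex, thalamus and striatum. For choroid plexus and ependyma, 0 of 7 markers were called. Beside all these counts, 3.85% of all genes tested were called averaged over treatments.

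The second question was whether DHA changed these signals. None of the 9 genes was called by edgeR with DHA in WT mice, in Tg2576 mice or averaged, and 0 of 9 had an unadjusted p under 0.05. DESeq2 and limma-voom also called 0. Over all genes, 1.38% were called with DHA in WT mice, 0.353% in Tg2576 mice and 0.87% averaged, so 0 of 9 does not set these genes apart from the background. For the abundant genes the intervals were narrow: in Tg2576 mice the DHA effect on Cx3cl1 was -0.08 on the log2 scale (interval -0.29 to 0.12), on Csf1 -0.11 (-0.36 to 0.15) and on Il34 0.04 (-0.23 to 0.32). For the sparse ones they were wide: Ccl3 -0.62 (-1.85 to 0.62), Il1b 0.04 (-0.92 to 1.01), Ccl4 0.00 (-0.0043; -1.32 to 1.31) and Il1a 0.52 (-0.75 to 1.80). The intervals of Ccl3, Ccl4, Il1a and Il1b each include a 2-fold change in at least one direction. Tnf, which is not among the 9, was fitted with all genes kept. Its DHA effect was -1.02 in Tg2576 mice (-3.06 to 1.01) and 0.97 in WT mice (-1.09 to 3.03), so it stayed unresolved.

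Il34 in WT mice did not overlap between treatments, though it was not called. The 4 DHA mice (47.4 to 50.8 CPM) were above the 4 vehicle mice (38.8 to 46.9 CPM), as in 2.78% of genes. The log2 fold change was 0.17 ± 0.12 (edgeR p = 0.192, adjusted p = 0.883; exact permutation, two-sided, p = 0.0286, its smallest value). The interaction of genotype and DHA was called for 0 of 9 genes, again with 0 of 9 under 0.05 and 0 by DESeq2 and limma-voom, where 0.829% of all genes were called. No genotype difference of these genes was thus shown to differ between treatments.

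The receptors and antagonists of these signals were examined as a list of 16 genes, of which 15 were tested. Averaged over treatments 11 of 15 were higher in Tg2576 mice, and Tnfrsf1a, Csf1r and Cx3cr1 were called higher, 3 of 15 beside 3.85% of all genes. The median log2 fold change of the 15 was 0.27, beside -0.0043 for all genes. Tnfrsf1a, the main TNF receptor, was at 8.01 to 11.9 CPM in WT and 11.1 to 18.1 CPM in Tg2576 mice (log2 0.47 ± 0.11, adjusted p = 0.0971). Csf1r, the receptor of CSF1 and IL-34, was at 92.3 to 112 CPM in WT and 106 to 154 CPM in Tg2576 mice (log2 0.29 ± 0.07, adjusted p = 0.121). Cx3cr1, which reads CX3CL1, was at 44.7 to 59.5 CPM in WT and 39.6 to 78.9 CPM in Tg2576 mice (log2 0.32 ± 0.11, adjusted p = 0.258). Csf1r and Cx3cr1 were thus higher where Csf1 and Il34 were not called and Cx3cl1 was lower; both receptors are also microglial markers.

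Under DHA 4 of 15 receptors were called higher in Tg2576 mice, beside 1.75% of all genes: Csf1r, Cx3cr1 and the TGF-β receptors Tgfbr1 (log2 0.48 ± 0.14, adjusted p = 0.536) and Tgfbr2 (0.45 ± 0.15, adjusted p = 0.565). Under vehicle 2 of 15 were called, beside 3.09% of all genes: Tnfrsf1a was higher (0.48 ± 0.15, adjusted p = 0.283) and Il1rap, the accessory chain of the IL-1 and IL-33 receptors, lower (-0.35 ± 0.12, adjusted p = 0.317). The interaction was called for 0 of 15 receptors, beside 0.829% of all genes, so no difference between treatments was shown for any of them. Leaving out 1 mouse at a time, the number called ranged from 2 to 5 averaged, 0 to 2 under vehicle and 0 to 5 under DHA, where it was 0 without the third Tg2576 DHA mouse. With DHA, 0 of 15 were called in either genotype. Among all genes 1.38% were called in WT and 0.353% in Tg2576 mice, so this does not set the receptors apart from the background.

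The remaining receptors gave no call. Il1r1 (12.3 CPM), Il1r2 (0.474 CPM), Tnfrsf1b (6.01 CPM), Tgfbr3 (17.6 CPM), Ptprz1 (149 CPM) and Sdc1 (1.08 CPM) were measured in every mouse. Ccr1, a receptor of CCL3, was sparse at 0.689 CPM, and its log2 fold change under DHA was 1.73 ± 0.68 (adjusted p = 0.652). Il1rl1, the IL-33 receptor, was at 0.337 CPM with 0 to 22 reads per mouse. Il1rn, the secreted IL-1 receptor antagonist, had 0 to 10 reads and was not tested.

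**Figure D4:**
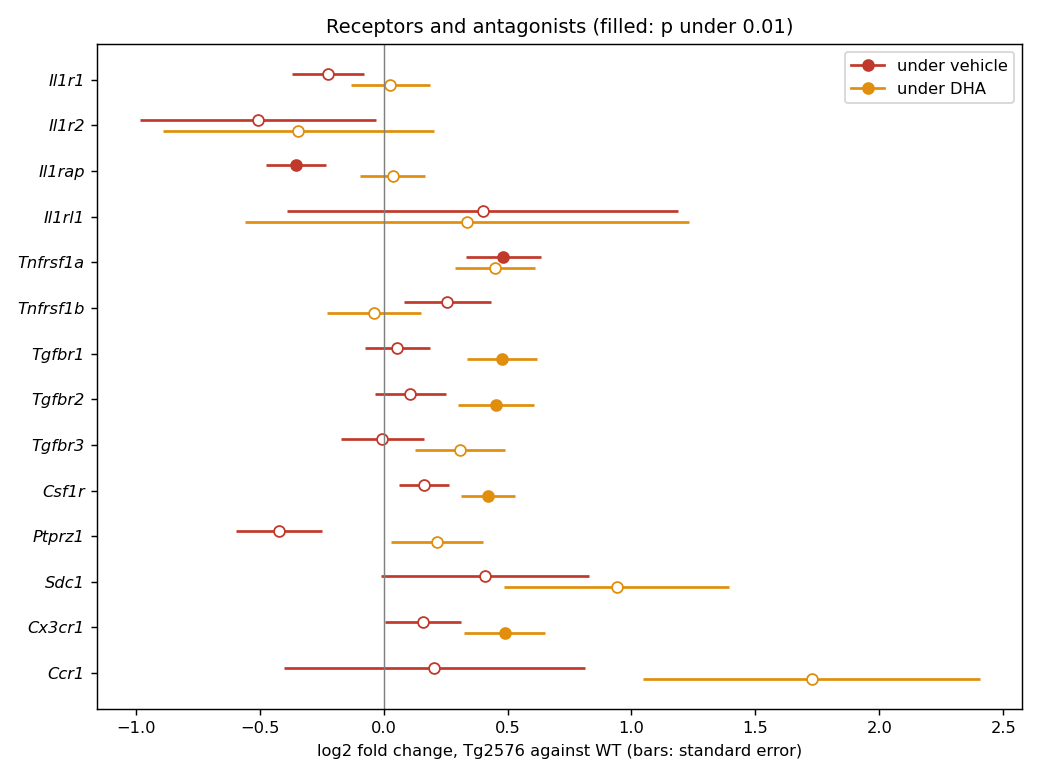
Log2 fold changes of 14 of the 15 tested receptors and antagonists, Tg2576 against WT, under vehicle and under DHA; bars are standard errors and filled points had p under 0.01. Tnfrsf1a and Il1rap are filled under vehicle, and Csf1r, Cx3cr1, Tgfbr1 and Tgfbr2 under DHA.

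Of 23 other cytokines and chemokines, 15 passed the filter and 1 was called averaged over treatments, which is near the 3.85% called among all genes. Ccl6, a macrophage chemokine, was at 1.23 to 3.19 CPM in WT and 1.87 to 5.65 CPM in Tg2576 mice (averaged log2 1.08 ± 0.23, adjusted p = 0.0739), and was also called within each treatment (adjusted p = 0.309 with vehicle, adjusted p = 0.536 with DHA). The most abundant of the list were Cxcl12 (56.9 CPM), Tgfb2 (54.1 CPM) and Il18 (13.9 CPM), and they were not called. Named after their values were seen, Il10 and Ifng had 0 reads in all 15 mice, Il6 at most 4 and Ccl2 at most 10 reads per mouse.

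Of 24 genes that process these ligands or carry their signals, 24 were tested. Averaged over treatments 1 was called higher and 1 lower, beside 3.85% of all genes. Under vehicle 1 was called higher and 1 lower, beside 3.09%, and under DHA 1 higher and 0 lower, beside 1.75%. Ctss, a cysteine protease of microglia that releases CX3CL1 from membranes, was at 44.6 to 76.5 CPM in WT and 70.5 to 129 CPM in Tg2576 mice (averaged log2 0.66 ± 0.13, adjusted p = 0.0492), and was called under vehicle and under DHA too. Smad3, which carries TGF-β signals, was lower (log2 -0.19 ± 0.06, adjusted p = 0.207), and Smad4, its partner, was called lower under vehicle (-0.31 ± 0.11, adjusted p = 0.315). The most abundant genes of the list were Hdac3 (104 CPM), Smad3 (99.9 CPM) and Ctss (75.7 CPM). With DHA 0 of 24 were called in WT and 0 in Tg2576 mice. Among all genes 1.38% and 0.353% were called, so this does not set the list apart from the background.

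The genes whose levels followed each member over the 15 mice are given as a description, since the mice share groups, library depth and cell makeup. The patterns most like Ccl4 were those of Ly86 (Pearson r 0.87), Tyrobp (0.87) and Trem2 (0.86), and those most like Ccl3 were Cd52 (0.90), AU020206 (0.88) and Ifitm3 (0.88). With the group means removed these stayed between 0.77 and 0.84. Tgfb1 was most like Itgam (0.89), Pgrmc2 (0.89) and Trem2 (0.88), which remained at 0.86 to 0.90 within groups. Several of these, such as Tyrobp, Trem2 and Itgam, are genes of myeloid cells.

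Il1b was most like Zfp983 (0.86), Gm48865 (0.85) and Cst7 (0.79). For Cst7 r dropped to 0.24 once group means were removed. Il33 followed Nat8f2 (0.95) and Riox2 (0.95), with the first Tg2576 vehicle mouse low in Il33. Cx3cl1 was most like Lct (0.92), Atcay (0.91) and Tmem151a (0.90), and Il34 most like Rexo4 (0.93) and Mterf1b (0.90). Csf1 was most like Gltp (0.86), Snhg18 (0.85) and Rhog (0.84), and Il1a most like Tph1 (0.93), Cir1 (0.90) and Gm43912 (0.88). Within the 9 genes, the highest correlation was between Tgfb1 and Ccl4 (0.75, and 0.65 with group means removed), followed by Ccl3 and Ccl4 (0.67 and 0.56). With group means removed the order changed, and Tgfb1 with Il33 (0.88), Tgfb1 with Il34 (0.81) and Csf1 with Il33 (0.78) led.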

How the data were processed

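Hippocampal RNA of 15 mice was sequenced, and the deposited files hold read counts per gene. Per the file headers the authors counted reads over GENCODE M 25 exons with featureCounts (1.6.0 in the submitters' processing notes, with STAR 2.6.1c and GRCm38), with no strand setting; the sequencing layout is not given in the sources used here. The sample descriptions name a SMARTER kit and the paper a stranded TruSeq kit. Gene symbols came from a GENCODE M 21 table and covered 55141 of 55401 genes.

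Counts were scaled by TMM (factors 0.961 to 1.03) and tested with edgeR 4.0.16 (R 4.3.3), quasi-likelihood, robust, 1 coefficient per group, on 19536 genes kept by filterByExpr with a minimum count of 10. Calls used an unadjusted p under 0.01, the study's threshold, and Benjamini-Hochberg adjusted p-values are given beside them. A total of 7 comparisons were made. Exact permutation tests used log2 CPM with a prior count of 2, within treatments for averaged comparisons. Whether the libraries of a group come from separate mice is not given in the sources used here. The smallest exact p is 0.0286 for 4 against 4 and for 4 against 3, and 0.000408 averaged. The code was tested on simulated data. Alternatives were DESeq2 1.42.0, limma-voom (limma 3.58.1), other scalings, filters, fits and the omission of each mouse.

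The genes, lists and tests were chosen with earlier results of these data known. Named genes were the 10 members, the receptor list, called or the 3 most abundant genes of the other lists, and the 3 genes most like each member. Intervals cover the spread between mice under the model. Values of some genes that this rule names are not reported here.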

Additional observations from a re-analysis of the deposited data

Results flagged for a closer look

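In all, 4 of 30 groups of 4 mice held a mouse that stood apart from its group by Dixon's criterion, which chance alone meets in about 1 in 20 groups. For Il1b the fourth Tg2576 vehicle mouse was at 0.935 CPM against 0.430 to 0.454 CPM in the other 3, and without it the genotype difference under vehicle was 0.70 on the log2 scale. For Csf1 the first Tg2576 vehicle mouse was at 32.9 CPM against 45.2 to 47.3 CPM. For Tgfb1 the fourth WT DHA mouse was at 6.38 CPM against 6.79 to 6.87 CPM, and for Il34 the first WT DHA mouse was at 50.8 CPM against 47.4 to 47.8 CPM. In the last 2 groups the spread among the other mice was small.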

How the results depend on the processing

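Averaged over treatments, 4 of 9 genes differed between genotypes; with at least 10 counts required in every mouse, which left 5 genes to test, the number was 1, and leaving out each mouse gave 2 to 5. Under vehicle the number was 1; it was 2 by DESeq2, 0 with at least 10 counts in every mouse and 0 for dispersions without the robust option, and 0 to 3 when each mouse was left out. Under DHA the number was 1; it was 2 by limma-voom, 2 without the robust option and 0 to 2 when each mouse was left out. For the DHA comparisons and the interaction it was 0 in every alternative run. Over 63 results for single genes and 1455 alternative values, 1408 kept their direction where called and their side of the threshold, 34 lost the call and 13 gained it; 0 calls reversed, and 69 uncalled values changed sign. Same-numbered mice did not deviate together (21 pairs, r from -0.24 to 0.21, 4 over 0.1). This gave no sign that the numbers pair the mice, but it cannot exclude a shared litter or batch. With the replicate block 3 genes were called averaged, 1 under vehicle and 0 under DHA, where Cx3cl1 lost its call. The number of all genes called under vehicle ranged from 312 without the second WT vehicle mouse to 965 without the first Tg2576 vehicle mouse, from 342 to 190 under DHA without the fourth WT DHA mouse. Without the first Tg2576 DHA mouse it rose from 69 to 312 for DHA in Tg2576 mice and from 162 to 527 for the interaction. For DHA in WT mice it was 270, 156 without the first WT vehicle mouse and 431 with only the 2 groups compared; for DHA in Tg2576 mice the latter gave 29, and DESeq2 and the fit with no filter 126 each. With no filter, 263 genes were called for DHA averaged (170 with it) and 289 for the interaction, where DESeq2 called 247. The receptor counts with mice left out were added after seeing the data. Depth limits Tnf, Il1b, Il1a, Ccl3 and Ccl4, whose counts are small and mostly even. The causes of these changes were not tested, apart from the stricter filter.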
